A study of Arabidopsis thaliana with 9 samples.

Results

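miR824 is a microRNA of Arabidopsis thaliana whose single gene, MIR824 (AT4G24415), gives a 5p and a 3p mature arm. The entries that carry its family number, ath-miR824-5p and ath-miR824-3p, were 2 of the 427 mature miRNA entries counted in each library. Both had counts in all 9 libraries, and both were among the 270 entries that passed the filter on low counts. Small RNA of 19 to 24 nt had been cut from gels from leaves of 3-week-old plants and sequenced. The groups were labelled chr2, named for the SWI/SNF chromatin remodelling ATPase CHR2 (also called BRAHMA, AT2G46020), se-2, a mutant allele of SERRATE (SE, AT2G27100), and WT, with 3 libraries each. The labels name no treatment, the allele of the chr2 line is not given in the sources used here, and the files hold miRNA counts only, so neither mutated gene nor any leaf cell marker could be checked. The labels number the libraries without saying that they came from separate plants, so p-values measure the spread between these libraries alone.

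In a plant cell a primary transcript folds back on itself, and the enzyme DCL1, together with SERRATE and HYL1, cuts a duplex of a 5p and a 3p arm from the foldback. One strand of the duplex is kept in an Argonaute protein and guides it to complementary transcripts, and the other is usually degraded. The miR824-5p strand is known to guide cleavage of the transcript of AGL16, a MADS-box transcription factor. AGL16 acts in the divisions of satellite cells that form higher-order stomatal complexes on the leaf, and it also delays flowering. No target of miR824-3p is described here. The study asked how CHR2 acts on primary miRNA transcripts through SERRATE.

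Both mature sequences are shown because the counts below are those of the entries named for these 21-nt strands. How a read was assigned to an entry is not given in the sources used here. miR161-1 and miR161-2, whose different sequences overlap in the genome, had nearly the same counts. An entry's count may thus include reads that only overlap its strand. They were read from the RefSeq TAIR10.1 assembly, and capitals mark the seed, bases 2 to 8.

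miR824-5p: uAGACCAUuugugagaaggga

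miR824-3p: cCUUCUCAucgauggucuaga

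The 5p arm lies on the plus strand at chr4:12625128-12625148 and begins with U, and its GC content is 42.9%. The 3p arm lies on the same strand at chr4:12625721-12625741 and begins with C, and its GC content is 47.6%. Each sequence had 1 exact match in the genome and belonged to 1 entry, and 0 other entries shared either seed. Reads of either arm therefore had no second annotated miRNA of the same sequence to be shared with.

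The annotated hairpin, chr4:12625094-12625782, is 689 nt long and was the longest of the 325 hairpins with an entry in the files, whose median length was 145 nt. The arms begin at hairpin positions 35 and 628, with 572 bases between them. In the minimum free energy structure from RNAfold, 18 of the 21 bases of the 5p arm paired within the 3p arm, and the free energy was -184.0 kcal/mol. The first 467 bases of the hairpin are overlapped by AT4G24413, a protein-coding gene on the opposite strand. The 5p arm thus lies inside that gene and the 3p arm lies outside it. Whether reads of the opposite strand were counted is not given in the sources used here.

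**Figure D1:**
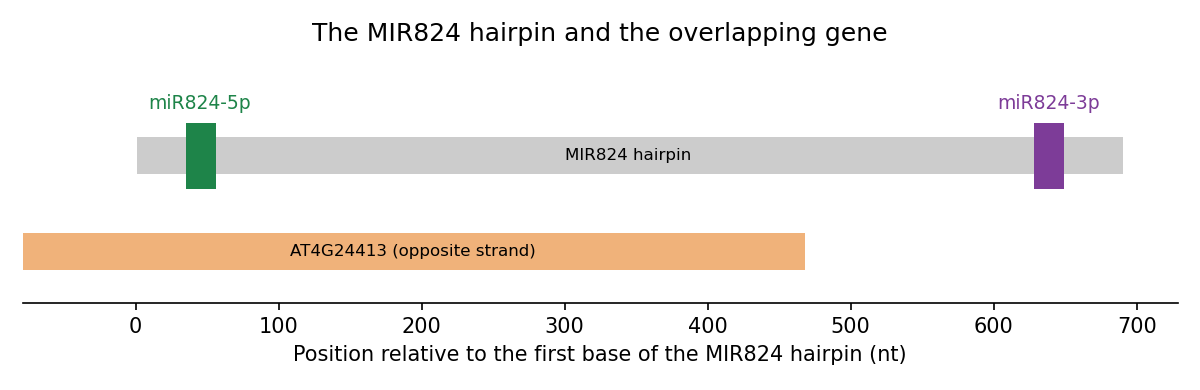
Map of the 689-nt MIR824 hairpin to scale, in nucleotides from its first base, with the 5p arm (green), the 3p arm (purple) and the gene annotated on the opposite strand (orange). The arms stand near the ends of the foldback, with 572 bases between them.

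The AGL16 transcript (AT3G57230, chr3:21177282-21181026, plus strand) holds a near-perfect complement of the 5p arm. It is shown as DNA letters of the sense strand, with capitals for the bases that pair with miR824-5p.

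AGL16 site: TCtCTTCTCACAAATGGTCTA

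This site, chr3:21180537-21180557, was present in 5 of 5 annotated transcripts, inside the coding sequence of 4 and in the 3′ UTR of 1. Its only difference from a perfect complement was C19T, counted from 1 at the 5′ end of the miRNA, with the base of the perfect complement first. That position forms a G:U wobble pair, and the seed and positions 10 and 11, between which Argonaute cuts, were fully paired. Among 27444 protein-coding genes, 2 had a transcript within 3 mismatches of the 5p complement, AGL16 and AT4G24413. The second holds the exact complement because it is annotated across the MIR824 hairpin on the other strand. The best windows in the paralogues AGL17, AGL21 and ANR1, MADS-box genes related to AGL16, had 8 mismatches each. For the 3p arm, 0 genes were within 2 mismatches and 2 genes were within 3, and the best window in AGL16 had 8. AGL16 mRNA was not measured in these libraries.

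The miRNA counts summed to 637283 to 908635 in chr2 libraries, 130482 to 195415 in se-2 libraries and 1280294 to 1588242 in WT libraries. Such a sum depends both on how deeply a library was sequenced and on how much of it was miRNA, so it does not show a change shared by most miRNAs. Levels below are in CPM, an entry's count scaled to a fixed library size, after TMM scaling, which sets each library against the average miRNA of the 270 entries tested. In whole leaves, fewer cells that make a miRNA and less of it per cell cannot be told apart.

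In se-2 the 2 arms of miR824 did not move together. The 3p arm, the more abundant one in WT leaves, was 3.33-fold lower in se-2 than in WT, while the 5p arm did not pass the test. The 5p arm made up 54.8% of miR824 counts in se-2 and 23.1% in WT. In chr2 neither arm passed the test against WT, and nor did their ratio.

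The 3p arm had 379, 314 and 394 CPM in the se-2 libraries, against 1090.04, 1289 and 1243 CPM in the WT libraries. The raw counts behind these levels were 52, 54 and 77 in se-2 and 1452, 1507 and 1735 in WT. Every se-2 library lay below every WT library. The mean was 362 ± 42.5 CPM in se-2 leaves and 1207 ± 104 CPM in WT leaves (SD, n = 3 per genotype), a log2 fold change of -1.74 (SE 0.23, 95% interval -2.20 to -1.27, edgeR quasi-likelihood adjusted p = 8.73e-08). By abundance miR824-3p ranked 76 to 82 among the 368 distinct count profiles of the se-2 libraries, against 50 to 53 in WT libraries. In the same comparison 72.6% of all tested entries were called, 42.2% higher and 30.4% lower in se-2, and miR824-3p had the 47th lowest of the 270 log2 fold changes. Many other entries thus differed by as much in se-2 on this scale.

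The 5p arm, the strand that pairs with AGL16, had 335, 459 and 547 CPM in the se-2 libraries, against 384, 330 and 369 CPM in the WT libraries. Its raw counts were 46, 79 and 107 in se-2 and 511, 386 and 515 in WT. The libraries of the groups overlapped, since the lowest se-2 library lay inside the WT range. The mean was 447 ± 106 CPM in se-2 leaves and 361 ± 27.6 CPM in WT leaves (SD, n = 3 per genotype), and the log2 fold change of 0.32 (SE 0.23, 95% interval -0.16 to 0.80, edgeR adjusted p = 0.213) did not pass the test. This value depended on the scaling between libraries, with -0.04 under DESeq2 size factors and -2.06 under the reference scaling described with the scaling plot. The direction of the AGL16-directed strand in se-2 thus differed between scalings.

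Summed over both arms, miR824 had 714, 773 and 940 CPM in se-2 libraries, against 1474, 1619 and 1612 CPM in WT libraries. The sum was 1.94-fold lower in se-2, with no overlap between the groups (exact two-sided permutation test, p = 0.1, the smallest that 3 against 3 libraries allow). As a share of all miRNA counts, miR824 took 0.0751%, 0.0787% and 0.0942% in se-2 and 0.142%, 0.148% and 0.142% in WT. In raw counts the sum of both arms was 14.7-fold lower in se-2, while the total of all miRNA counts was 8.58-fold lower. That total adds up all entries, some with nearly the same counts, such as miR161-1 and miR161-2. A read may thus have been counted more than once in it, so the percentages are not shares of reads.

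In chr2 the 5p arm had 204, 345 and 386 CPM, against 384, 330 and 369 CPM in WT libraries. The first chr2 library lay below all WT libraries and the other two fell in or next to the WT range. The mean was 312 ± 95.2 CPM in chr2 leaves and 361 ± 27.6 CPM in WT leaves (SD, n = 3 per genotype). The log2 fold change was -0.21 (SE 0.22, 95% interval -0.66 to 0.24, edgeR adjusted p = 0.509). For this comparison 30% of all tested entries were called, 10.4% higher and 19.6% lower in chr2.

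The 3p arm had 909.6, 909.985 and 1407 CPM in the chr2 libraries, against 1090.04, 1289 and 1243 CPM in the WT libraries. Of the chr2 libraries, 2 lay below the WT range and 1 above it. The mean was 1075 ± 287 CPM in chr2 leaves and 1207 ± 104 CPM in WT leaves (SD, n = 3 per genotype), with a log2 fold change of -0.17 (SE 0.20, 95% interval -0.58 to 0.25, edgeR adjusted p = 0.58). Both intervals leave room for differences on either side of 0, so the test does not show that the levels were equal. Under reference scaling the 3p value was -0.56 with an adjusted p of 0.0462, past the limit. That scaling set without miR8175, its most counted entry in chr2, gave 0.14 with an adjusted p of 0.681.

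Set directly against each other, the mutants differed in the 3p arm. Its log2 fold change in chr2 against se-2 was 1.57 (SE 0.23, 95% interval 1.10 to 2.03, edgeR adjusted p = 5.28e-07), 2.96-fold higher in chr2 with no overlap between the libraries. In this comparison 80.4% of all tested entries were called, 33% higher and 47.4% lower in chr2. The 5p arm was lower in chr2 by a log2 of -0.53 (SE 0.24, 95% interval -1.02 to -0.05, edgeR adjusted p = 0.0416), but its libraries overlapped. This call was lost when any of 8 of the 9 libraries was left out, with adjusted p up to 0.816, and was kept only without the first se-2 library. It was also lost or turned in direction under 8 of 10 other settings. The comparisons share their libraries and are not independent of each other.

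**Figure D2:**
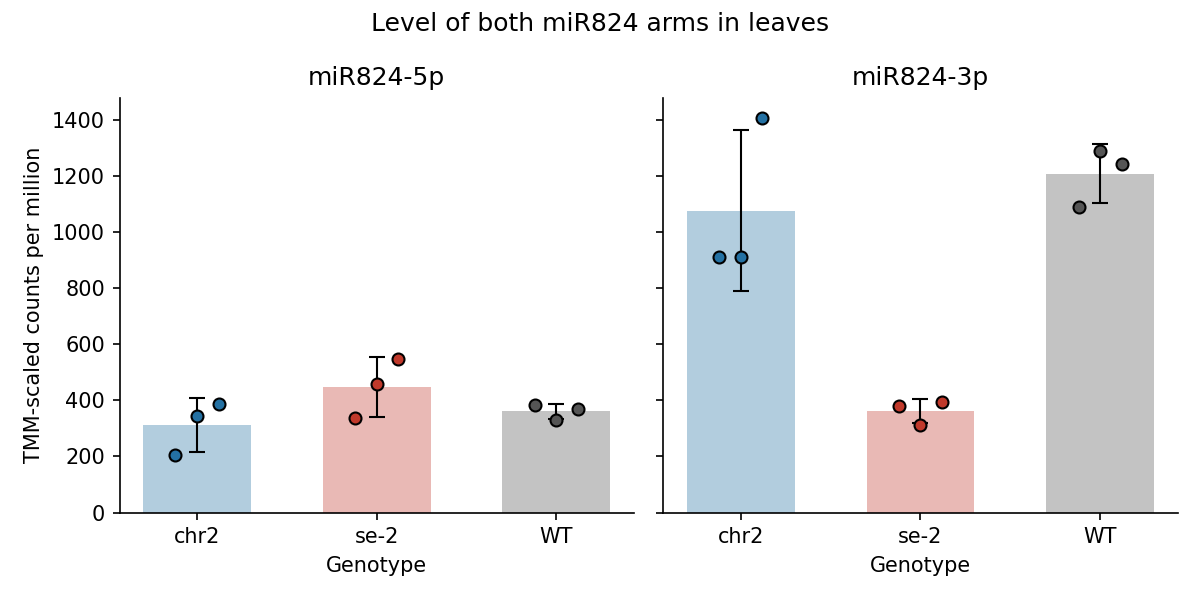
Level of miR824-5p (left panel) and miR824-3p (right panel) in TMM-scaled CPM, for chr2, se-2 and WT. Bars are means, error bars are SD over 3 libraries, and points are libraries. The 3p arm stood at 314 to 394 CPM in se-2 and at 1090.04 to 1289 CPM in WT, while the 5p arm of the groups overlapped on this scale and had a log2 fold change of -2.06 in se-2 under reference scaling.

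The ratio of the arms is taken within a library, so it does not depend on scaling between libraries. The 5p arm was 46.9% (95% Wilson interval 37.4 to 56.7), 59.4% (50.9 to 67.4) and 58.2% (50.9 to 65.0) of miR824 counts in the se-2 libraries. It was 26.0% (24.1 to 28.0), 20.4% (18.6 to 22.3) and 22.9% (21.2 to 24.7) in the WT libraries. The intervals cover counting error only, and they are wide in se-2, where 98, 133 and 184 counts stood behind the shares. No interval of a se-2 library reached that of a WT library. Expressed the other way, there were 1.13, 0.684 and 0.720 counts of the 3p arm for each of the 5p arm in se-2 libraries, against 2.84, 3.90 and 3.37 in WT libraries. The 5p arm was thus the more counted one in 2 of 3 se-2 libraries and in 0 of 3 WT libraries.

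The change of log2(5p/3p) in se-2 against WT was 2.02 (SE 0.33, 95% interval 1.31 to 2.73, limma adjusted p = 0.000385), a 4.06-fold change of the ratio. The share itself gave p = 0.1 in the exact two-sided permutation test, the smallest possible. Of 60 hairpins with both arms tested, 43.3% were called in this comparison, 25% with a higher and 18.3% with a lower 5p share in se-2. The median change over the 60 hairpins was 0.02. The change of miR824 was the 9th highest, after those of miR390b at 3.86, miR168b at 3.47 and miR160c at 2.96, which were the largest, and 5 others. The 5p strands of miR390b, miR168b and miR160c have the same sequences as miR390a-5p, miR168a-5p and miR160a-5p. Their counts may thus include reads from other hairpins, as may those of other tested hairpins with a shared strand. Of the 8 hairpins above miR824, 5 had an arm with 2 counts or fewer in a se-2 library (miR390b, miR168b, miR169f, miR169b and miR164c). miR390 triggers secondary siRNAs, miR168 targets AGO1 and miR160 targets auxin response factors. The largest changes the other way were those of miR835 at -2.74, miR173 at -2.56 and miR164b at -1.91, each with an arm of 3 counts or fewer in a se-2 library. miR164 targets NAC genes of organ boundaries. In miR824 the smallest count of an arm in se-2 was 46.

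miR824 was 1 of 5 hairpins whose mean share put a different arm on top in se-2 than in WT. Of the others, miR169a had a 5p share of 61.7% in se-2 and 26.6% in WT, and miR840 had 56.7% in se-2 and 29.1% in WT. The remaining ones, miR835 and miR830, had an arm with 2 counts or fewer in a se-2 library. Over all 60 hairpins the less abundant WT arm gained share in se-2 in 27, of which 11 were called, and lost share in 33, of which 15 were called. miR824, whose less abundant arm gained share, belongs to the smaller of these groups.

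In chr2 the 5p arm was 18.3% (95% Wilson interval 15.8 to 21.2), 27.5% (25.1 to 30.0) and 21.5% (19.1 to 24.2) of miR824 counts, against 26.0%, 20.4% and 22.9% in WT. The mean share was 22.5% ± 4.65 in chr2 and 23.1% ± 2.83 in WT (SD, n = 3 each), and the libraries overlapped. The change of log2(5p/3p) was -0.06 (SE 0.33, 95% interval -0.77 to 0.64, limma adjusted p = 0.988). In this comparison 3.33% of the hairpins were called, miR156d and miR393a, both with a higher 5p share in chr2. Their 5p strands share sequences with entries of other hairpins, such as miR156a-5p and miR393b-5p, so the 5p counts may include reads of those. Their 3p arms were lower in chr2, with log2 fold changes of -5.14 and -2.35. Between the mutants the change of log2(5p/3p) of miR824 in chr2 against se-2 was -2.08 (95% interval -2.79 to -1.38, limma adjusted p = 0.000245). There 56.7% of the hairpins were called, 23.3% with a higher and 33.3% with a lower 5p share in chr2.

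**Figure D3:**
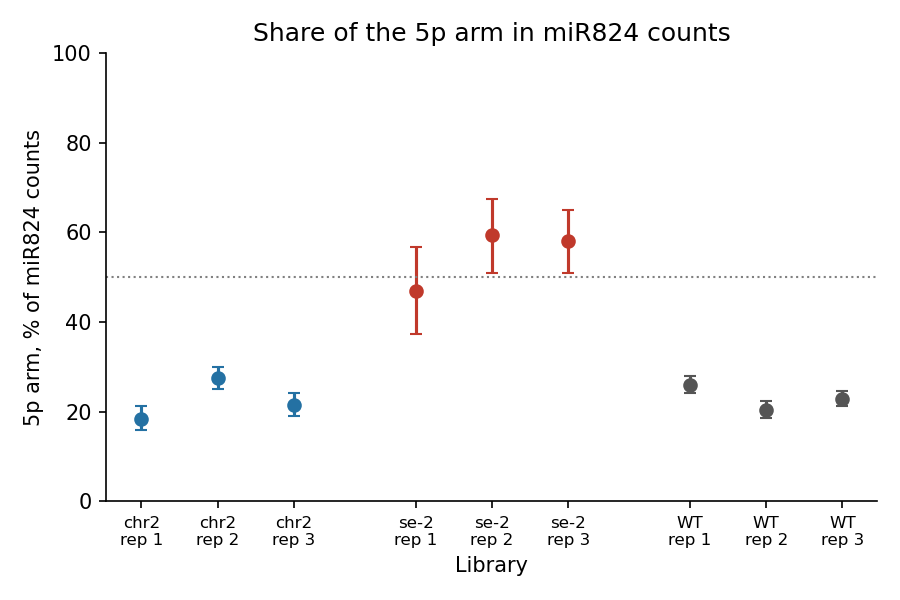
Share of the 5p arm among miR824 counts in each library, in percent, with 95% Wilson intervals as bars and a dotted line at 50%. The se-2 libraries lie between 46.9% and 59.4%, above every chr2 and WT library, whose shares run from 18.3% to 27.5%.

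**Figure D4:**
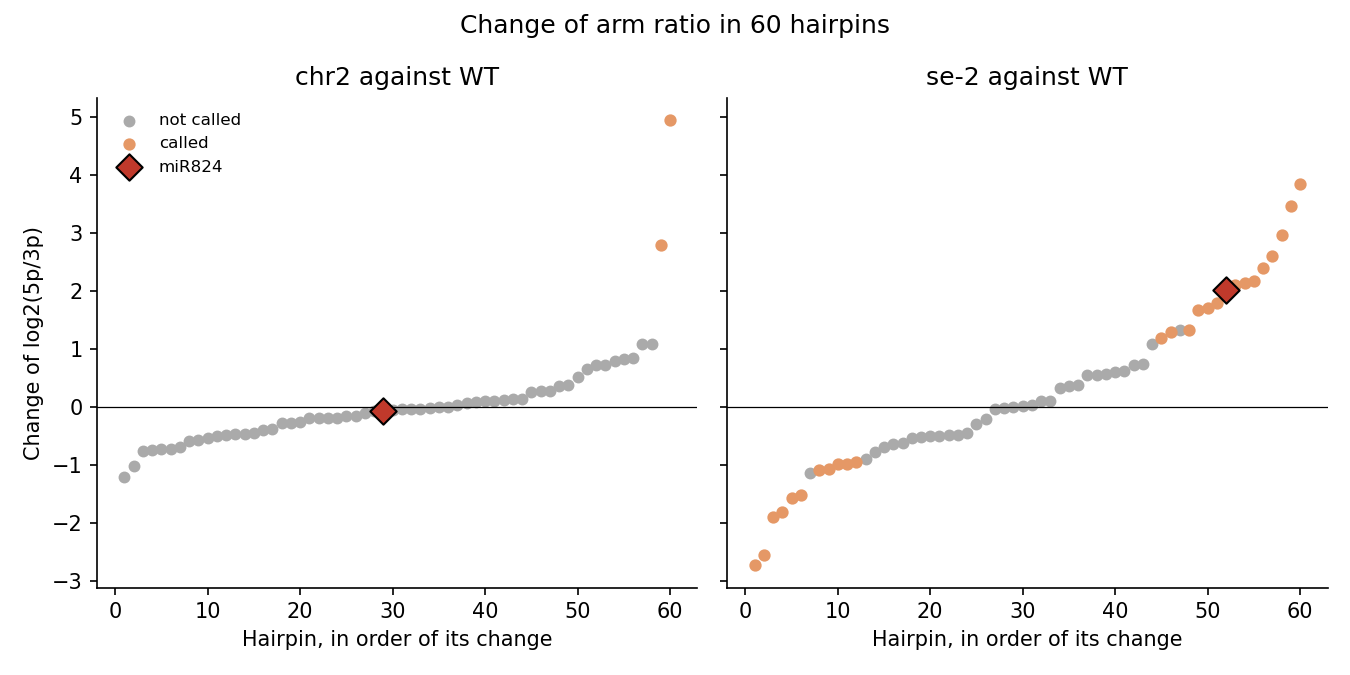
Change of log2(5p/3p) in chr2 against WT (left) and in se-2 against WT (right) for 60 hairpins, each panel in order of the change. Orange points passed the limma test. The miR824 diamond stands at -0.06 in chr2 and at 2.02 in se-2, where it is the 9th highest.

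Scaling between libraries bears on the arms' levels but not on their ratio. Besides TMM, the libraries were scaled by DESeq2 size factors, by total counts, and by the summed counts of entries annotated late, with family numbers from 5000 upwards. This last way is here called reference scaling, which assumes that those entries were constant. There were 115 late entries, and those with no counts or with a repeated count profile were left out of the sum. The late entries summed to 3703 to 5272 counts in chr2 libraries, 4005 to 4320 in se-2 libraries and 5761 to 6425 in WT libraries. Reference scaling moved the median log2 fold change of all tested entries from 0.11 to -2.30 in se-2 against WT. In chr2 against WT it moved from -0.15 to -0.52. Under it miR824-5p had a log2 fold change of -2.06 in se-2 (edgeR adjusted p = 1.38e-05) and miR824-3p had -4.14 (edgeR adjusted p = 3.42e-10). The 3p arm was lower in se-2 than in WT under every scaling tried, from -1.59 under total counts to -4.14 under reference scaling. Which scaling is nearest to the RNA content of the leaves was not tested.

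**Figure D5:**
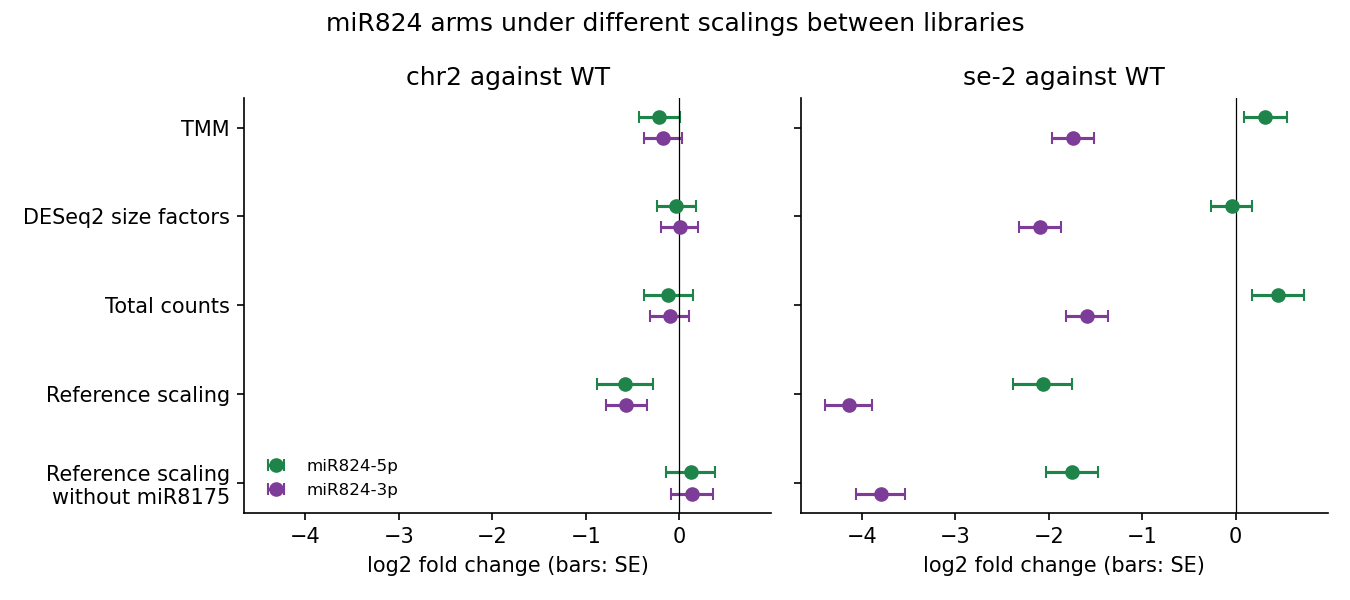
log2 fold change of miR824-5p (green) and miR824-3p (purple) with SE, in chr2 against WT (left) and in se-2 against WT (right), under 5 ways of scaling the libraries. In se-2 the 3p arm lies below 0 in all 5, while the 5p arm lies at 0.32 under TMM, at -0.04 under DESeq2 size factors and at -2.06 under reference scaling. The chr2 values lie between -0.58 and 0.14 and change sign between scalings.

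The arms resembled different miRNAs across the 9 libraries. Likeness was the root mean square difference of log2 CPM, each entry centred on its own mean, over 207 entries of other families. The entries nearest to the 5p arm were miR848 at 0.22, miR393b-3p at 0.26, miR843 at 0.31, miR823 at 0.32 and miR858b at 0.33, against a median of 0.93. Those nearest to the 3p arm were miR161-1 and miR161-2, both at 0.22 with nearly the same counts, then miR403-3p at 0.23, miR403-5p at 0.28 and miR775 at 0.29, against a median of 1.08. miR161 targets PPR genes and miR403 targets AGO2. The miR824 arms differed from each other by 1.004, and 126 of the 207 entries were nearer to the 5p arm than the 3p arm was.

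Other miRNA families that act on flowering time or phase change, as AGL16 does, had 48 entries, of which 45 were detected and 38 tested (miR156, miR157, miR159, miR172, miR319, miR390 and miR399). In se-2 against WT 12 of the 38 were called higher and 15 lower, beside 114 and 82 of all 270 tested entries (42.2% and 30.4%). The median log2 fold change of the list was -0.31, beside 0.11 for all tested entries. Some entries of the list share a mature sequence, such as miR172a with miR172b-3p and miR319a with miR319b. Its counts of calls thus hold some sequences more than once, as do those of all 270 entries. Entries were listed by family number, so the calls cover either arm of a hairpin, also the less abundant one. The higher ones included entries of miR172 and miR319, families that target AP2-like and TCP genes. The lower ones included both arms of miR157a and miR157c, of a family that targets SPL genes. These calls are on the TMM scale, and under reference scaling the median of the list was -2.73 and 15 of all 270 entries were called higher. miR399d, of a family that targets the phosphate regulator PHO2, had 3, 6 and 4 counts in se-2 libraries and 1, 2 and 1 in WT libraries, and was called higher (edgeR adjusted p = 1.39e-06). miR390b-3p had 1, 0 and 0 counts in se-2 libraries and 125, 87 and 144 in WT libraries. It is the less abundant arm of its hairpin in WT, and miR390b-5p had a log2 fold change of -0.52 (edgeR adjusted p = 0.0148). The most abundant entry, miR159a, which targets GAMYB-like genes, had 22073 ± 2845 CPM in se-2 leaves and 23961 ± 1628 CPM in WT leaves (SD, n = 3 per genotype), with a log2 fold change of -0.12 (edgeR adjusted p = 0.615). That value passed the test as lower in se-2 under DESeq2 size factors, at -0.47 (edgeR adjusted p = 0.0321), and under reference scaling, at -2.54 (edgeR adjusted p = 2.91e-08).

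In chr2 against WT 8 of these 38 entries were called higher and 4 lower, beside 28 and 53 of all 270 tested entries (10.4% and 19.6%). Their median was 0.18, beside -0.15 for all tested entries, and was -0.20 under reference scaling. miR319c had 3459 ± 1351 CPM in chr2 leaves and 1085 ± 79.9 CPM in WT leaves (SD, n = 3 per genotype), a log2 fold change of 1.67 (edgeR adjusted p = 1.93e-06). miR156d-3p had 15.0 ± 2.61 CPM in chr2 leaves and 527 ± 5.04 CPM in WT leaves (SD, n = 3 per genotype), a log2 fold change of -5.14 (edgeR adjusted p = 8.48e-16). It is the less abundant arm of its hairpin in WT. The other arm, miR156d-5p, had -0.12 (edgeR adjusted p = 0.685), with a sequence shared by other miR156 entries such as miR156a-5p. Neither arm of miR824 was called in this comparison.

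MIR824 has the longest hairpin, so entries of other families with hairpins at or above the 90th percentile of length, 335.4 nt, were set beside it. There were 39, of which 37 were detected and 24 tested. In se-2 against WT 18 of the 24 were called higher and 3 lower (miR167d, miR169g-3p and miR5652), beside 42.2% higher and 30.4% lower among all 270 tested entries. The median log2 fold change of the list was 2.02, beside 0.11 for all tested entries. miR5645a, b, d, e and f have the same mature sequence, as do miR5642a and miR5642b. All of these were called higher, so the 18 calls and the median count some sequences more than once. The listed miR5635a, miR169c and miR169g-5p share sequences with entries of shorter hairpins, such as miR5635b, miR169b-5p and miR169d. Their counts may thus include reads from hairpins outside the list. Of the 18, 11 were late annotation entries, 6 of them of the miR5645 family, and 7 were also in the range miR820 to miR879. Their extremes were miR835-3p, with 4, 7 and 11 counts in se-2 libraries and 2, 2 and 8 in WT libraries, and miR5652, with 1, 1 and 0 in se-2 and 47, 34 and 34 in WT. The values of miR824, 0.32 for the 5p arm and -1.74 for the 3p arm, both lay below the median of this list. Under reference scaling the median of the list in se-2 was -0.38, where that of all tested entries was -2.30. The late entries of the list are themselves part of the counts that set that scaling.

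In chr2 against WT 0 of the 24 long-hairpin entries were called higher and 4 lower, miR169g-3p, miR846-3p and both arms of miR822. Among all 270 tested entries 10.4% were higher and 19.6% lower, so the count of lower calls in the list is near that of all entries. The list had a median of -0.16 (0.042 under DESeq2 size factors), beside -0.15 for all tested entries. miR822-5p, the most abundant of them, had 553 ± 45.2 CPM in chr2 leaves and 1884 ± 26.6 CPM in WT leaves (SD, n = 3 per genotype), a log2 fold change of -1.77 (edgeR adjusted p = 4.21e-08). In se-2 it had 3044 ± 108 CPM, a log2 fold change of 0.69 against WT (edgeR adjusted p = 0.00188) that was 0.34 and did not pass under DESeq2 size factors (edgeR adjusted p = 0.11) and was -1.71 under reference scaling. miR169g-3p had 130, 188 and 140 CPM in the chr2 libraries and 435, 196 and 209 CPM in the WT libraries, a log2 fold change of -0.87 (edgeR adjusted p = 0.00997). The first WT library stood apart, and without it the value was -0.20 (edgeR adjusted p = 0.617). The call was also lost without the first or the third chr2 library, at -0.55 and -0.59 (edgeR adjusted p = 0.227 and 0.134).

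The entries from miR820 to miR879 were named in the same period as miR824 and are mostly limited to the Brassicaceae, and 81 of them, other than miR824, were listed, 73 detected and 49 tested. In se-2 against WT 26 of the 49 were called higher and 9 lower, beside 42.2% and 30.4% of all 270 tested entries. Their median log2 fold change was 0.90 (-1.49 under reference scaling), beside 0.11 for all tested entries. The list holds miR854a, miR854b and miR854d, which share the same mature sequence and were all called higher. In chr2 against WT 2 were called higher and 14 lower, beside 10.4% and 19.6% of all tested entries, with a median of -0.48, beside -0.15. miR840-5p had 1152 ± 83.4 CPM in se-2 leaves and 31.6 ± 2.20 CPM in WT leaves (SD, n = 3 per genotype), a log2 fold change of 5.18 (edgeR adjusted p = 3.2e-17). miR829-3p-1 had 0 counts in all 3 se-2 libraries and 26, 16 and 30 in WT libraries. In chr2, miR845a, which matches retrotransposon sequences, had 63.5 ± 13.6 CPM against 3.27 ± 1.42 CPM in WT (SD, n = 3 each), a log2 fold change of 4.16 (edgeR adjusted p = 1.15e-10). Its WT counts were 6, 2 and 5. It was also higher in se-2 than in WT, with a log2 fold change of 3.70 (edgeR adjusted p = 1.36e-07). Between the mutants it was not called (edgeR adjusted p = 0.221). miR863-3p, known to target SE transcripts, had 70.8 ± 1.40 CPM in chr2 leaves and 263 ± 4.73 CPM in WT leaves (SD, n = 3 per genotype), a log2 fold change of -1.89 (edgeR adjusted p = 4.21e-08). The miR824 arms were not among the calls in chr2, and of them the 3p arm alone was called in se-2.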

How the data were processed

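Small RNA libraries were made from leaves of 3-week-old plants of chr2, se-2 and WT (3 each), grouped by sample title. For every mature miRNA entry the authors deposited a raw read count, a whole number with no normalization applied. Per the submitters' processing notes, Bowtie 1.1.2 and the TAIR10 genome were used; the counting tool, the annotation, the use of strand and the treatment of reads with several matches are each not given in the sources used here. All 427 entry names matched the RefSeq annotation of TAIR10.1, which gave sequences and coordinates, and structures were predicted with ViennaRNA 2.7.2.

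Entries were tested with edgeR 4.0.16 (R 4.3.3; quasi-likelihood, robust, TMM, filterByExpr with a minimum count of 10) in a single fit of all 9 libraries with genotype as the only term. With TMM, a fold change is set against the average miRNA. Arm ratios were tested with limma 3.58.1 on log2 of the counts plus 0.5, over 60 hairpins. Adjusted p-values are by Benjamini and Hochberg, limit 0.05. DESeq2 1.42.0 and limma-voom were alternatives. On simulated counts for se-2 against WT, the test recovered 62% of 2-fold and 94% of 4-fold changes, and 1.69% of its calls were false. For chr2 against WT these values were 88.7%, 98% and 5.72%, so false calls lay above the limit. For chr2 against se-2 they were 70%, 92% and 3.85%. The simulations, 5 for each comparison, changed a minority of the entries, with as many raised as lowered. In the real se-2 comparison with WT 72.6% of entries were called. The rates therefore leave out error from the scaling between libraries. No pair of replicates differed by as little as counting noise (chi-square per degree of freedom 2.85 to 95.5), so none was treated as a copy.

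Named entries were both arms, the 5 entries most like each, the largest and smallest called changes and the most abundant entry of each list, and the 3 largest arm changes each way. Members, lists and rules were chosen with earlier results of these data known.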

Additional observations from a re-analysis of the deposited data

How the results depend on the processing

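The fall of miR824-3p in se-2 and its higher level in chr2 than in se-2 kept direction and call under all 10 other settings and without any library (log2 -1.84 to -1.63 and 1.57 to 1.90), and so did the arm ratio in se-2 and between the mutants under all 6 other settings (without any library 1.89 to 2.25 and -2.31 to -1.91). The chr2 arm ratio stayed uncalled, at -0.27 to 0.11. For miR824-5p in se-2, DESeq2 size factors gave -0.042, the DESeq2 test -0.043, reference scaling -2.06 and that scaling without miR8175 -1.75 (without any library 0.14 to 0.48). Reference scaling without miR8175 and a fit of only the groups compared gave 0.12 and 0.024 for miR824-5p in chr2 against WT (without any library -0.27 to 0.21). For miR824-3p in chr2 these gave 0.14 and 0.050, DESeq2 size factors 0.0052, the DESeq2 test 0.0047, a single entry per mature sequence 0.029 and reference scaling -0.56 (without any library -0.18 to 0.12). For miR824-5p in chr2 against se-2, DESeq2 size factors gave 0.013, the DESeq2 test 0.014, total counts -0.57, no filter -0.49, a single entry -0.13, only the groups compared -0.40, reference scaling 1.48 and that without miR8175 1.87 (without any library -0.69 to -0.056). The causes were not tested.

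Replicate numbers did not pair the libraries (correlations of deviations -0.21 to 0.08). With the replicate number as a block, miR824-5p had 0.27 in se-2, -0.26 in chr2 and -0.53 in chr2 against se-2, miR824-3p had -1.75, -0.19 and 1.55, and the arm ratio 2.02, -0.06 and -2.08. No call of these changed.

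List medians moved with the scaling. In se-2 the flowering-time median was -0.66 under DESeq2 size factors and -0.66 in its test, -2.73 under reference scaling, -2.38 without miR8175 and -0.57 with single entries (without any library -0.43 to -0.24). In chr2 it was 0.37, 0.37, -0.20, 0.51 and 0.28 in that order, 0.26 with total counts, 0.31 with no filter and 0.40 with only the groups compared (without any library 0.15 to 0.44). The long-hairpin median in se-2 was 1.66, 1.67, -0.38 and -0.040 under the first 4 of these (without any library 1.94 to 2.14). In chr2 it was 0.042, 0.047, -0.52 and 0.19, -0.37 with single entries and 0.14 with only the groups compared (without any library -0.16 to 0.093). For entries from miR820 to miR879 in se-2 it was 0.54, 0.54, -1.49, -1.15 and 0.55 with single entries, 0.62 with no filter and 1.21 with only the groups compared (without any library 0.78 to 1.06). In chr2 it was -0.28, -0.30, -0.82, -0.14, -0.28, -0.22 and -0.28 (without any library -0.47 to -0.21).

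Among other named entries in se-2, direction changed for miR393b-3p (-0.16 under DESeq2 size factors and in its test, -2.19 under reference scaling, -1.88 without miR8175), miR823 (-0.082, -0.083, -2.10 and -1.79), miR822-5p (-1.71 and -1.38 under the reference scalings), miR848 (-1.70 and -1.38), miR843 (-1.96 and -1.62) and miR159a (0.031 with total counts, 0.0079 with no filter). miR159a was called lower at -0.47, -2.54 and -2.19 under DESeq2 size factors, reference scaling and that without miR8175 (adjusted p = 0.0321, 2.91e-08 and 1.03e-09). The miR169g-3p call in chr2 was lost with total counts (-0.78, adjusted p = 0.088), reference scaling without miR8175 (-0.50, 0.231), the DESeq2 test (-0.67, 0.123) and only the groups compared (-0.62, 0.163).

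Of 270 entries, those called higher and lower numbered 114 and 82 in se-2 against WT, 15 and 192 under reference scaling and 28 and 182 without miR8175. In chr2 against WT they were 28 and 53, with 46 higher under DESeq2 size factors, 12 and 107 under reference scaling, 48 and 25 without miR8175, 35 lower with total counts, 31 in the DESeq2 test, 28 with single entries, 34 with only the groups compared, and 30, 33 and 29 without WT replicate 1, chr2 replicate 1 and chr2 replicate 3. In chr2 against se-2 they were 89 and 128, with 160 and 31 under reference scaling, 175 and 21 without miR8175 and 85 lower with single entries. Hairpins with a lower 5p share in se-2 were 11, and 7 without any 1 WT replicate. In chr2 they were 2 higher and 0 lower by limma, 4 and 3 by diffSpliceDGE, and 2 lower with only the groups compared. Depth limits miR824 in se-2, where an arm had as few as 46 counts.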
